A study of Mus musculus with 19 samples.

Results

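The core pluripotency factors and their partners were followed across 4 genotypes of mouse embryonic stem cells. The set was chosen by name and held 8 of the 21685 gene symbols in the deposited table: Pou5f1, Sox2, Nanog, Sall4, Utf1, Myc, Stat3 and Fgf4. All 8 passed the filter on low values. The study asked how TRIM71, an RNA-binding ubiquitin ligase, acts on let-7 microRNAs in cells with or without LIN28A, an RNA-binding protein that blocks let-7 maturation. All cells were male C57BL/6 stem cells grown with serum and leukaemia inhibitory factor (LIF) and sorted with magnetic beads for the surface antigen SSEA-1.

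The first element of each genotype's name gives the Trim71 state and the second the Lin28a state. WT-WT (Trimfl/fl - Lin28afl/fl, 4 libraries) carried floxed alleles of both genes, and KO-WT (Trim-/- - Lin28afl/fl, 4 libraries used) had lost Trim71. WT-KO (Trimfl/fl - Lin28a-/-, 5 libraries) lacked Lin28a, and KO-KO (Trim-/- - Lin28a-/-, 5 libraries) lacked both. Per the labels, Trim71 was deleted by a 2 day exposure to 500 nM 4-hydroxytamoxifen, with harvest no sooner than 7 days afterwards. Whether the cells labelled WT for Trim71 also saw the drug is not given in the sources used here. Lin28a-intact cells came from clones 1 and E3 and Lin28a-null cells from clones 1-4 and C1, so a Lin28a effect and a difference between clones cannot be told apart. The libraries of a genotype were harvests of its 2 clones on separate days, and the p-values measure the spread between those harvests.

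OCT4 (encoded by Pou5f1) and SOX2 are transcription factors that bind DNA side by side at a composite element and keep embryonic stem cells able to form every lineage of the embryo. With NANOG and SALL4 they maintain each other's expression. In mouse cells, LIF acts through the transcription factor STAT3 to sustain self-renewal, whereas FGF4, a growth factor that the cells secrete and that OCT4 and SOX2 activate, drives ERK signalling and readiness to differentiate.

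Values are deposited log2 expression from which differences between harvest days had been removed. Library depth is unknown, and no value is scaled to transcript length, so levels are compared between genotypes and not between genes. Trim71 lay between 8.77 and 9.55 in Trim71-null libraries and between 10.04 and 11.00 in the others. Lin28a lay between 8.21 and 8.57 in Lin28a-null libraries and between 9.74 and 10.26 in the others. The word intact names the allele and not an unchanged level. Lin28a was lower in KO-WT than in WT-WT (log2 difference -0.28, limma adjusted p 0.036). From WT-KO to KO-KO the Lin28a difference was -0.19 (adjusted p 0.0971). Trim71 was higher in WT-KO than in WT-WT (0.45, adjusted p 0.00431) and in KO-KO than in KO-WT (0.38, adjusted p 0.0111). The 8 stem cell markers fixed for this purpose were all above the filter. The highest was Dppa5a, with genotype means from 13.67 to 14.05, and the lowest Fut9, with means from 7.37 to 7.97. Esrrb had means from 11.84 to 12.50 and Dnmt3l means from 11.27 to 12.19. Among lineage markers the mesendoderm genes T, Mixl1, Gsc and Evx1 lay at or below 2.66 in every library. On the same list Wnt3 reached 3.91 and Eomes lay between 5.23 and 5.70, and these 2 of its 8 genes passed the filter. Of 10 fibroblast markers 4 were analysed, the highest being Fbln2 at up to 5.89. The library that stood apart for the members was WT-KO replicate 2. It had the largest median distance from its genotype mean over the members. It was the highest or lowest library of its genotype for 6 of 8 members, as KO-WT replicate 1 was for 7, and its distance was 0.155 log2 units over the members against 0.0774 over all genes tested. Results that rest on it are given with and without it. It was picked on the members' own values, so a member's call gained without it is not independent support.

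Genes count as called at an adjusted p under 0.05 (Benjamini-Hochberg over all 14988 genes tested, limma with a term for day). When WT-KO was compared with WT-WT, that is Lin28a loss with Trim71 intact, 8 of 8 members were called, where 42.4% of all genes were. Of the members 7 were higher and 1 lower, against 20.3% and 22% of all genes. The members' median log2 difference was 0.22, against -0.01 over all genes tested. For Lin28a loss in Trim71-null cells, KO-KO compared with KO-WT, 6 of 8 were called, against 42.8% of all genes, and the median was 0.15. Of these 4 were higher and 2 lower, against 20.8% and 22% of all genes. Between KO-KO and WT-WT, the loss of both, 6 of 8 were called, against 45.6% of all genes, with a median of 0.20. Of these 5 were higher and 1 lower, against 21% and 24.6%. Trim71 loss moved fewer members. With Lin28a intact (KO-WT and WT-WT) 2 of 8 were called, against 11.2% of all genes, both higher, against 4.74% higher and 6.43% lower. Without Lin28a (KO-KO and WT-KO) 2 of 8 were called, against 8.38%, both higher, against 4.26% higher and 4.12% lower. In the comparison of the single mutants (WT-KO and KO-WT), which was added after the data were seen, 3 of 8 were called, against 46.1% of all genes. Nanog at 0.89 (adjusted p 1.5e-07) and Sall4 at 0.39 (adjusted p 4.12e-05) were higher in WT-KO and Myc at -0.90 (adjusted p 8.56e-05) was lower, against 23.6% higher and 22.5% lower. No member was called for the interaction, which asks whether the Trim71 effect differs between the Lin28a states, where limma called 0.02% of all genes and 15.1% had an unadjusted p under 0.05. Without WT-KO replicate 2 these counts were, in the same order, 8, 6, 6, 3, 3, 3 and 0. The shares of all genes called were then 41.6%, 43.5%, 46%, 11.2%, 7.37%, 43.1% and 0.02%. The member gained in both Trim71 comparisons was Myc. After Lin28a loss with Trim71 intact, 2 members were called among libraries of clones E3 and C1 and 5 among those of clones 1 and 1-4, where 15.5% and 29.2% of all genes were called.

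**Figure D1:**
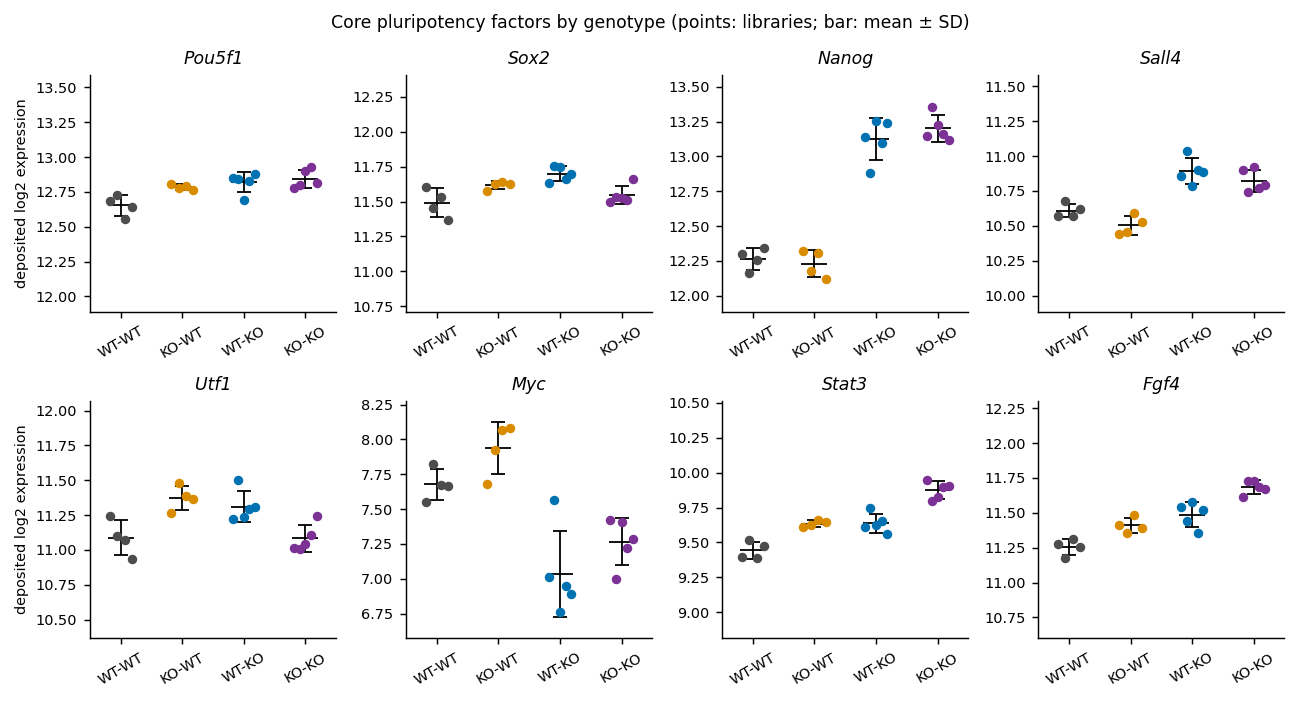
Deposited log2 expression (vertical axes, each spanning the same number of log2 units) of the 8 members in WT-WT, KO-WT, WT-KO and KO-KO libraries (horizontal axes). Points are libraries and bars are the mean ± SD with n = 4, 4, 5 and 5. Nanog separates the Lin28a states, with every Lin28a-null library at or above 12.88 and every Lin28a-intact library at or below 12.34, while Stat3 and Fgf4 are lowest in WT-WT and highest in KO-KO.

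Nanog encodes a homeodomain transcription factor that stabilises the undifferentiated state and whose level fluctuates between single stem cells. Nanog stood at 12.30, 12.16, 12.25 and 12.34 in the WT-WT libraries and at 12.32, 12.18, 12.31 and 12.12 in the KO-WT libraries. It stood at 13.14, 12.88, 13.25, 13.10 and 13.24 in WT-KO and at 13.15, 13.36, 13.22, 13.16 and 13.12 in KO-KO. The Lin28a states did not overlap, and the Trim71 states overlapped within each Lin28a state. Nanog rose 1.81-fold after Lin28a loss with Trim71 intact (log2 difference 0.86 ± 0.0772 SE, limma adjusted p 3.44e-07) and 1.96-fold where Trim71 was absent too (0.97 ± 0.0772, limma adjusted p 8.44e-08), each in 4 of 4 same-day pairs. Its log2 difference after Trim71 loss was -0.03 with Lin28a intact (95% interval -0.21 to 0.14, adjusted p 0.826) and 0.08 without Lin28a (-0.07 to 0.23, adjusted p 0.558). The order of genotype means was KO-WT at 12.23, WT-WT at 12.26, WT-KO at 13.12 and KO-KO at 13.20, and only the step from WT-WT to WT-KO was called. In bulk samples, a larger share of Nanog-expressing cells and more Nanog RNA per cell cannot be told apart.

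The 3 genes whose profile lay nearest to that of Nanog, by the root mean square difference of centred log2 values over the 18 libraries, were Prdm14 at 0.0891, Ephb2 at 0.0933 and Acacb at 0.0971. Prdm14, which encodes a zinc finger regulator of pluripotency and germ cells, had means of 7.33, 7.34, 8.05 and 8.20 in WT-WT, KO-WT, WT-KO and KO-KO. Ephb2, an ephrin receptor, had means of 6.53, 6.62, 7.37 and 7.54. The 18 libraries share genotypes and clones, so this likeness is a description.

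The Nanog start region is shown because it holds the composite element through which OCT4 and SOX2 are known to act. Of the 8 members, 6 had a start region in the RefSeq table (GRCm38.p6), and the 250 bases before each annotated start were searched on both strands. The composite was written as the SOX core CATTGT, any base and the octamer core ATGCAAA, that is CATTGTNATGCAAA. In the stretch chr6:122707239-122707488, read on the plus strand up to the first annotated Nanog start, the capitals mark the composite, which is on the minus strand and begins 75 bases before the start:
Nanog: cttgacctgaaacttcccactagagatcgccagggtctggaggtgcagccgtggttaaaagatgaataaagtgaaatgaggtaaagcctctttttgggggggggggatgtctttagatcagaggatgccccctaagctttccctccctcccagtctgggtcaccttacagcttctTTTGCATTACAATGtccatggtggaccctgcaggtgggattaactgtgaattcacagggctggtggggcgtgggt
Among 27025 genes with a start region in the table, 1 gene held these letters, and that gene was Nanog (0.0037%). The octamer core alone was found in 4.65% of genes and the SOX core alone in 12.2%. Both searches also count the composite, which contains each of them. These are exact letter matches in a short window and not sites shown to be bound in these cells.

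Sox2 held the octamer core, which begins 99 bases before its start in chr3:34649866-34649932 on the plus strand, marked in capitals:
Sox2: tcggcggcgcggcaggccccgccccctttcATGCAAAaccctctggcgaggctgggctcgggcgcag
The SOX core was found 158 bases before the second of the Pou5f1 starts. The start regions of Utf1, Stat3 and Fgf4 held none of the 5 motifs searched, and no member's region held the STAT site (TTCNNNGAA, in 8.13% of genes) or the E-box (CACGTG, in 6.86%).

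Pou5f1, the POU-domain factor without which stem cells leave the pluripotent state, moved little. Its libraries lay between 12.55 and 12.73 in WT-WT, 12.76 and 12.81 in KO-WT, 12.69 and 12.88 in WT-KO and 12.78 and 12.93 in KO-KO. WT-WT had the lowest mean and overlapped WT-KO but not KO-WT or KO-KO. Pou5f1 rose after loss of both genes (1.14-fold, log2 difference 0.19 ± 0.0507 SE, limma adjusted p 0.00595, 4 of 4 pairs). In WT-KO against WT-WT the rise was 0.17 ± 0.0507 (adjusted p 0.0154, 3 of 4 pairs). It was no longer called when WT-WT replicate 3 was left out (0.12, adjusted p 0.0762), nor when either replicate 1 or replicate 5 of WT-KO was (adjusted p 0.0529 and 0.0549). The difference after Trim71 loss was 0.13 with Lin28a intact (95% interval 0.02 to 0.25, adjusted p 0.121) and 0.03 without Lin28a (-0.07 to 0.13, adjusted p 0.794). The Pou5f1 transcript is also rich in G and C (57.6%), and once the dependence on GC content and length was taken out of every library its difference was 0.03 after Trim71 loss with Lin28a intact (adjusted p 0.757) and 0.16 after Lin28a loss in Trim71-null cells (adjusted p 0.00905), the latter 0.06 and not called before (adjusted p 0.368). The range of the 4 genotype means, 0.19 log2 units, was wider than that of 31.2% of the genes tested.

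Sox2, the HMG-box partner of OCT4, stood at 11.60, 11.45, 11.54 and 11.37 in WT-WT and at 11.58, 11.62, 11.64 and 11.63 in KO-WT. It stood at 11.64, 11.76, 11.75, 11.66 and 11.70 in WT-KO and at 11.49, 11.53, 11.52, 11.51 and 11.66 in KO-KO. All WT-KO libraries were above all WT-WT libraries, and KO-KO overlapped every other genotype. Sox2 rose after Lin28a loss with Trim71 intact (0.21 ± 0.0522 SE, limma adjusted p 0.00419, 4 of 4 pairs). In Trim71-null cells the Lin28a difference was -0.07 (95% interval -0.18 to 0.04, adjusted p 0.284). The Trim71 difference was 0.13 with Lin28a intact (adjusted p 0.148, higher in 3 of 3 pairs) and -0.16 without Lin28a (adjusted p 0.0574, lower in 5 of 5 pairs). The difference between these effects, the interaction, was -0.28 (95% interval -0.44 to -0.12, unadjusted p 0.00154) and was not called over all genes (adjusted p 0.184).

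Utf1, a chromatin-associated gene that OCT4 and SOX2 activate in undifferentiated cells, had the widest interaction of the 8. Utf1 stood at 11.24, 11.10, 11.07 and 10.94 in WT-WT and at 11.26, 11.48, 11.39 and 11.37 in KO-WT. It stood at 11.22, 11.50, 11.23, 11.29 and 11.31 in WT-KO and at 11.01, 11.00, 11.05, 11.11 and 11.24 in KO-KO. Both single mutants had higher means than WT-WT and KO-KO, and KO-WT lay wholly above both, while WT-KO overlapped each of them. With Lin28a intact, Utf1 rose after Trim71 loss by 0.28 ± 0.0802 (SE, 1.22-fold, limma adjusted p 0.0343, 3 of 3 pairs). Without Lin28a the Trim71 difference was -0.23 ± 0.0687 and just missed the call (adjusted p 0.0502, lower in 5 of 5 pairs). Lin28a loss likewise raised Utf1 with Trim71 intact (0.22 ± 0.0743, adjusted p 0.0238) and lowered it in Trim71-null cells (-0.29 ± 0.0743, adjusted p 0.00495). KO-KO differed from WT-WT by -0.01 (95% interval -0.16 to 0.15, adjusted p 0.956). The interaction was -0.51 (95% interval -0.74 to -0.29, unadjusted p 0.000166) and was not called over all genes (adjusted p 0.179).

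The Utf1 transcript is rich in G and C, at 63.5%, which is above 99% of the genes tested. Over 14724 genes, which do not count as independent replicates, GC content had a rank correlation of 0.502 with the Trim71 difference in Lin28a-intact cells and -0.497 with the interaction. The dependence on GC content and length was then taken out of every library. The Utf1 difference after Trim71 loss became 0.15 with Lin28a intact and was not called (limma adjusted p 0.154). Without Lin28a the Utf1 difference after Trim71 loss became -0.17 and was called (adjusted p 0.0475). In that comparison 11.2% of all genes were now called, against 8.38% before. The Lin28a difference of Utf1 in Trim71-null cells became -0.09 (adjusted p 0.194), and its interaction -0.32 (adjusted p 0.315). The Sox2 interaction, for a transcript GC content of 50.5%, was then -0.25 (adjusted p 0.315), and neither gene's interaction was called before or after. The call of Utf1 after Trim71 loss with Lin28a intact was also lost without any 1 of WT-WT replicates 2, 3 and 4 or KO-WT replicates 2, 3 and 4 (differences of 0.21 to 0.29, adjusted p 0.0632 to 0.139). The same held in clones E3 and C1 alone, with 0.29 (adjusted p 0.17) and only 2 WT-WT libraries. In clones 1 and 1-4 alone, with 1 KO-WT library, the difference was 0.28. Its call after Lin28a loss with Trim71 intact was lost without WT-WT replicate 2 (0.23, adjusted p 0.05), replicate 3 (0.22, adjusted p 0.055) or replicate 4 (0.15, adjusted p 0.127), and in the same sets of clones (0.26 and 0.17, adjusted p 0.0922 and 0.229).

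**Figure D2:**
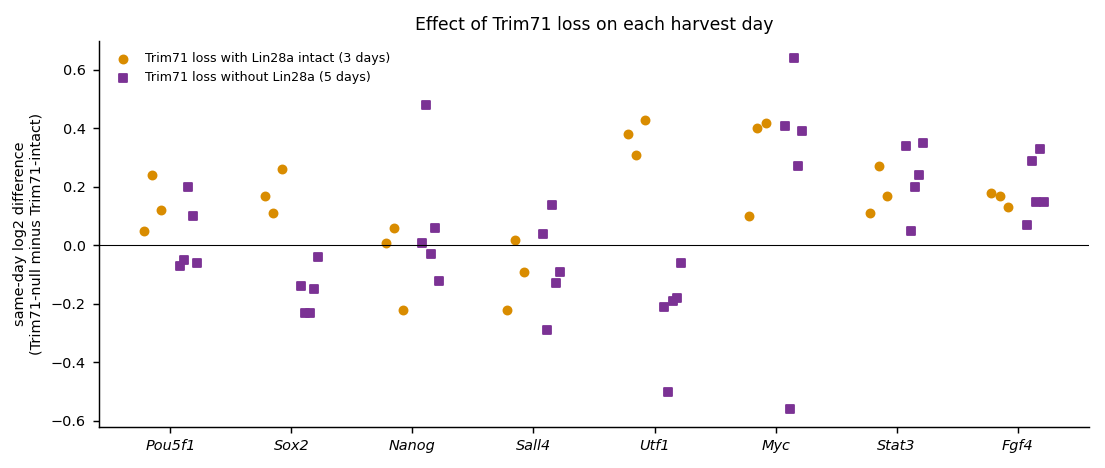
Log2 difference between the Trim71-null and the Trim71-intact library of the same harvest day (vertical axis) for each member (horizontal axis), on 3 days with Lin28a intact (circles) and 5 days without Lin28a (squares). Sox2 and Utf1 lie above 0 on all 3 days with Lin28a intact and below 0 on all 5 days without it, and Myc has 1 day at -0.56 among 5 without Lin28a.

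The pair of harvest day 2 in Lin28a-null cells, which holds WT-KO replicate 2, gave the highest same-day difference for Nanog (0.48) and the lowest for Utf1 (-0.50) and Myc (-0.56) among the 5 pairs. Without that library, the difference after Trim71 loss in Lin28a-null cells was -0.01 for Nanog (limma adjusted p 0.919), -0.16 for Utf1 (adjusted p 0.144) and -0.13 for Sox2 (adjusted p 0.135). The interaction was then -0.47 for Utf1 (adjusted p 0.132) and -0.27 for Sox2 (adjusted p 0.199). The Nanog, Sall4, Stat3 and Fgf4 rises after Lin28a loss with Trim71 intact were still called without it, at 0.92, 0.25, 0.17 and 0.24.

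Sall4, a zinc finger factor that binds OCT4 and NANOG and recruits the NuRD deacetylase complex, rose with Lin28a loss and was not called after Trim71 loss. Its libraries lay between 10.57 and 10.68 in WT-WT, 10.44 and 10.59 in KO-WT, 10.78 and 11.03 in WT-KO and 10.74 and 10.92 in KO-KO. The Lin28a states did not overlap. Sall4 rose by 0.28 ± 0.0568 (SE, limma adjusted p 0.000871) with Trim71 intact and by 0.32 ± 0.0568 (adjusted p 0.000304) without Trim71, each in 4 of 4 pairs. Its difference after Trim71 loss was -0.11 with Lin28a intact (95% interval -0.24 to 0.02, adjusted p 0.268) and -0.07 without (-0.18 to 0.04, adjusted p 0.485). In clones E3 and C1 alone the rise with Trim71 intact was 0.28 and not called (adjusted p 0.0671).

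The list of proteins known to associate with OCT4, SOX2, NANOG or SALL4 held 21 genes, all tested. After Lin28a loss with Trim71 intact 8 were higher and 5 lower (61.9% called, against 42.4% of all genes), with a median of 0.08 against -0.01 over all genes. The most raised were Arid1a, a subunit of BAF chromatin remodelling complexes, at 0.40 (limma adjusted p 0.000487) and Parp1, a poly-ADP-ribose polymerase, at 0.38 (adjusted p 1.62e-06). The most lowered were Rif1, a telomere and replication timing factor, at -0.56 (adjusted p 0.0185) and the NuRD subunit gene Mta3 at -0.42 (adjusted p 8.26e-07). In Trim71-null cells 8 were higher and 2 lower after Lin28a loss (47.6% called, against 42.8%). After Trim71 loss the shares called were below those of all genes, at 9.52% against 11.2% with Lin28a intact and 4.76% against 8.38% without. With Lin28a intact 2 were lower, Rif1 at -0.72 (adjusted p 0.0268) and the histone-binding gene Rbbp7 at -0.17 (adjusted p 0.0262). Without Lin28a only Rbbp7 was called, at -0.14 (adjusted p 0.0326).

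Among the signalling members, Stat3, the transcription factor activated by LIF through JAK kinases, was higher after every loss. Stat3 stood at 9.40, 9.51, 9.39 and 9.47 in WT-WT and at 9.61, 9.63, 9.66 and 9.65 in KO-WT. It stood at 9.61, 9.74, 9.63, 9.65 and 9.56 in WT-KO and at 9.95, 9.79, 9.82, 9.89 and 9.91 in KO-KO. The single mutants overlapped each other, lay above every WT-WT library and lay below every KO-KO library. Stat3 rose by 0.19 ± 0.0529 after Trim71 loss with Lin28a intact (SE, limma adjusted p 0.0312), by 0.20 ± 0.049 in WT-KO relative to WT-WT (adjusted p 0.00449) and by 0.43 ± 0.049 after loss of both (1.35-fold, adjusted p 3.74e-06). The further steps from a single mutant to KO-KO were 0.24 for Trim71 loss (adjusted p 0.00436, 5 of 5 pairs) and 0.24 for Lin28a loss (adjusted p 0.00102, 4 of 4 pairs). The interaction was 0.04 (95% interval -0.10 to 0.19, adjusted p 0.801), and the single mutants differed by 0.00 (95% interval -0.10 to 0.11). The call after Trim71 loss with Lin28a intact was lost in both sets of clones alone. Leaving out any 1 of WT-WT replicates 1, 3 and 4 or KO-WT replicates 2, 3 and 4 lost it (adjusted p 0.0621 to 0.114). The call in WT-KO relative to WT-WT was likewise lost in both sets of clones, at 0.22 (E3 and C1) and 0.15 (1 and 1-4).

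Of 12 genes on the path from LIF to STAT3, all tested, none rose and 5 fell after Lin28a loss with Trim71 intact, so that 41.7% were called against 42.4% of all genes. Their median was -0.12, against -0.01 over all genes. Jak2, a kinase that activates STAT3, fell by 0.89 (limma adjusted p 0.000463). In Trim71-null cells 6 of 12 fell after Lin28a loss (50% called, against 42.8% of all genes), with Jak2 at -0.75 (adjusted p 0.00176) and Socs3, a STAT3 target that inhibits JAK kinases, at -0.63 (adjusted p 2.63e-05). After Trim71 loss with Lin28a intact 3 rose and 1 fell (33.3% called, against 11.2% of all genes). Socs3 rose by 0.38 (adjusted p 0.0189) and the kinase gene Pim3 by 0.32 (adjusted p 0.00464), while Pim1, another STAT3 target, fell by 0.27 (adjusted p 0.0109). Without Lin28a, Pim1 alone was called after Trim71 loss, at -0.31 (adjusted p 0.00141), a share of 8.33% against 8.38% of all genes.

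Fgf4 was likewise lowest in WT-WT and highest in KO-KO. It stood at 11.27, 11.17, 11.31 and 11.26 in WT-WT and at 11.41, 11.35, 11.48 and 11.39 in KO-WT. It stood at 11.54, 11.44, 11.58, 11.36 and 11.52 in WT-KO and at 11.61, 11.73, 11.73, 11.68 and 11.67 in KO-KO. Every KO-KO library was above every other library, and every WT-WT library was below every other. Fgf4 rose by 0.23 ± 0.0512 after Lin28a loss with Trim71 intact (SE, limma adjusted p 0.00174), by 0.28 ± 0.0512 without Trim71 (adjusted p 0.000455) and by 0.43 ± 0.0512 after loss of both (1.35-fold, adjusted p 5.93e-06). After Trim71 loss it rose by 0.20 ± 0.0474 without Lin28a (adjusted p 0.017, 5 of 5 pairs), and with Lin28a intact the difference was 0.16 (95% interval 0.04 to 0.27, adjusted p 0.0766, higher in 3 of 3 pairs). The interaction was 0.04 (95% interval -0.11 to 0.20, adjusted p 0.819). The call without Lin28a was lost without WT-KO replicate 4 (0.15, adjusted p 0.0576), KO-KO replicate 2 (adjusted p 0.0628) or KO-KO replicate 3 (adjusted p 0.0523), and in both sets of clones alone.

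The 15 genes from the FGF4 receptors to ERK kinases were all tested. Fgfr2, one of the receptors, was lower in every comparison with a loss: at -0.76 after Lin28a loss with Trim71 intact (limma adjusted p 2.74e-07), at -0.40 after Trim71 loss with Lin28a intact (adjusted p 0.0043), at -0.31 after Trim71 loss without Lin28a (adjusted p 0.00552) and at -1.07 after loss of both (adjusted p 5.33e-09). After Lin28a loss with Trim71 intact 3 of the 15 were higher, led by the ERK kinase gene Mapk3 at 0.32 (adjusted p 0.000515) and the exchange factor gene Sos1 at 0.21 (adjusted p 0.0143), and 6 were lower. In all 60% of the list was called, against 42.4% of all genes, and its median was -0.01, as over all genes. Trim71 loss called 3 of 15 with Lin28a intact (20%, against 11.2% of all genes), where Fgfr1 was higher by 0.19 (adjusted p 0.0263), and 1 of 15 without (6.67%, against 8.38%).

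Myc, the growth-promoting transcription factor that LIF and STAT3 sustain in stem cells, fell with Lin28a loss in both Trim71 states. Myc stood at 7.55, 7.82, 7.67 and 7.66 in WT-WT and at 7.68, 7.93, 8.07 and 8.08 in KO-WT. It stood at 7.01, 7.56, 6.76, 6.95 and 6.89 in WT-KO and at 7.42, 7.00, 7.41, 7.22 and 7.29 in KO-KO. WT-KO replicate 2, at 7.56, was the only Lin28a-null library to reach the WT-WT range. Myc fell by 0.64 ± 0.142 on the log2 scale after Lin28a loss with Trim71 intact (SE, 0.641-fold, limma adjusted p 0.00188) and by 0.67 ± 0.142 where Trim71 was absent too (0.628-fold, adjusted p 0.0013), each in 4 of 4 pairs. After loss of both it fell by 0.41 ± 0.142 (adjusted p 0.0271), a call lost without WT-WT replicate 2 (-0.34, adjusted p 0.101), WT-WT replicate 3 (adjusted p 0.0528), WT-WT replicate 4 (adjusted p 0.0554), KO-KO replicate 2 (adjusted p 0.0557) or KO-KO replicate 4 (adjusted p 0.0565). In clones E3 and C1 alone neither this difference (-0.54, adjusted p 0.101) nor that of Lin28a loss with Trim71 intact (-0.66, adjusted p 0.0591) was called. In clones 1 and 1-4 alone the difference after loss of both was -0.25 and was not called either.

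The Trim71 difference of Myc was 0.26 with Lin28a intact (95% interval -0.06 to 0.59, adjusted p 0.274, higher in 3 of 3 pairs) and 0.23 without (-0.05 to 0.51, adjusted p 0.317, higher in 4 of 5 pairs). Neither was called. Without WT-KO replicate 2 the differences were 0.35 (adjusted p 0.0156) and 0.43 (adjusted p 0.00303), both called, and the Lin28a difference with Trim71 intact was -0.77 (adjusted p 1.91e-06). That library was singled out on values that include Myc, so these calls are not independent support for a Trim71 effect. It is in neither genotype of the first difference, which moved through the day terms fitted to all genotypes together. Among the members Myc had the largest spread within genotypes, with a residual SD of 0.253 against a median of 0.107 over all genes tested. The genes nearest to the Myc profile over the 18 libraries were Camk2a, Gcnt3 and Atf3, at root mean square differences of 0.141, 0.145 and 0.148. Atf3, a stress-induced transcription factor, had means of 4.55, 4.68, 3.91 and 4.08 in WT-WT, KO-WT, WT-KO and KO-KO.

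In the list of 14 other MYC network genes, all tested, 4 were higher and 3 lower after Lin28a loss with Trim71 intact, so that 50% were called against 42.4% of all genes, with a median of -0.01. Trim71 loss called 14.3% of the list with Lin28a intact and 7.14% without, against 11.2% and 8.38% of all genes. After Lin28a loss with Trim71 intact, Max, the obligate partner of MYC, was lower at -0.34 (limma adjusted p 7.69e-05), as was the antagonist Mxd4 at -0.76 (adjusted p 0.00154). In the same comparison Zbtb17, which encodes the MYC-binding factor MIZ1, was higher by 0.41 (adjusted p 7.81e-06) and the antagonist Mnt by 0.35 (adjusted p 0.000153). Mycl, a paralogue of Myc, was lower after Trim71 loss at -0.50 with Lin28a intact (adjusted p 0.00231) and at -0.52 without (adjusted p 0.000278), a direction opposite to the uncalled Myc differences. Mga, which competes for MAX, was lower at -0.64 with Lin28a intact (adjusted p 0.0161).

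**Figure D3:**
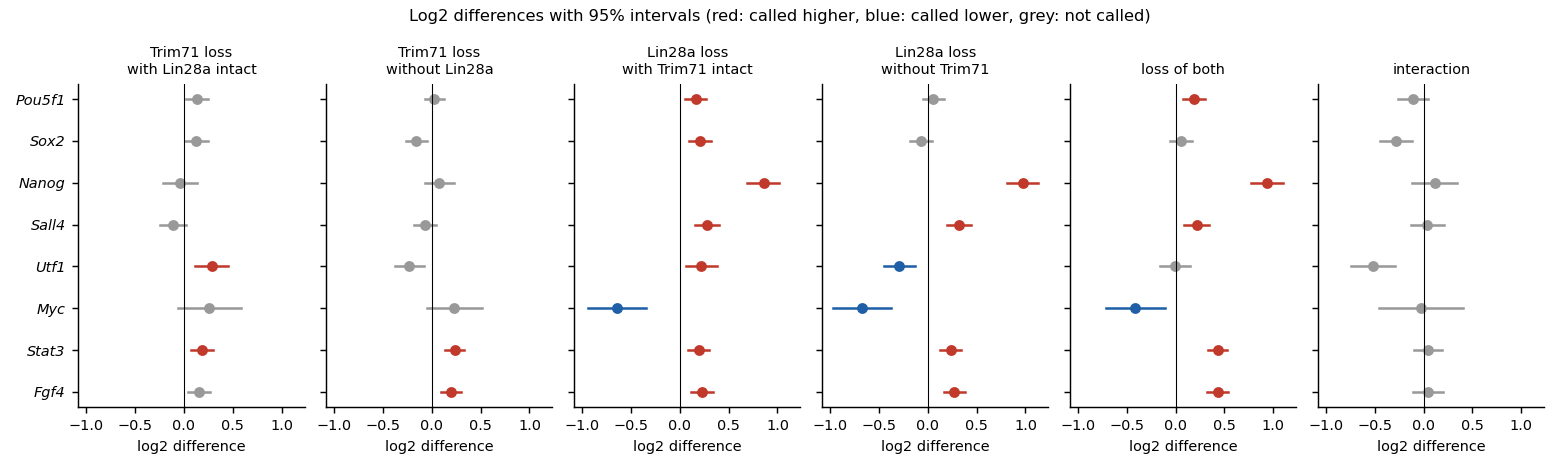
Log2 differences (horizontal axes) of the 8 members with 95% intervals from limma, in the 5 comparisons of genotypes and for the interaction. Red marks genes called higher, blue genes called lower and grey genes not called at an adjusted p of 0.05. Nanog and Myc lie farthest from 0 after Lin28a loss and in opposite directions, and no member is called for the interaction.

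Other transcription factors of the network moved with the members after Lin28a loss. Of 18 such genes, all tested, 13 rose and 1 fell with Trim71 intact (77.8% called, against 42.4% of all genes), with a median of 0.40 against -0.01 over all genes. Sall1, a relative of Sall4, rose by 1.00 (limma adjusted p 5.03e-10) and Nr5a2, a nuclear receptor that can activate Pou5f1, by 0.74 (adjusted p 7e-07). The gene that fell was Otx2, which directs stem cells out of the naive state, at -0.90 (adjusted p 7.27e-05). In Trim71-null cells 11 rose and 1 fell (66.7% called, against 42.8%), again Otx2, at -1.09 (adjusted p 1.03e-05). Part of this list was already known to be higher after Lin28a loss when the list was written, so its direction is not independent evidence.

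Trim71 loss called 6 of the 18 in each Lin28a state, a share of 33.3% against 11.2% and 8.38% of all genes. With Lin28a intact all 6 were higher, led by the Kruppel-like factors Klf4 at 0.46 (limma adjusted p 0.00102) and Klf5 at 0.37 (adjusted p 0.000647). Without Lin28a 5 were higher, led by Nr5a2 at 0.40 (adjusted p 0.00136) and Klf4 at 0.38 (adjusted p 0.000894), and Klf2 was lower at -0.60 (adjusted p 0.000135). With Lin28a intact the Klf2 difference was -0.11 (adjusted p 0.408), and the difference between the states was not called for any gene of the list.

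Genes reported as targets of the OCT4-SOX2 element numbered 10, all tested. After Lin28a loss with Trim71 intact 6 were higher and 1 lower (70% called, against 42.4% of all genes), with a median of 0.31. Lefty1, a secreted inhibitor of Nodal, was higher by 1.28 (limma adjusted p 3.15e-07) and Gdf3, a ligand of the same family, by 1.01 (adjusted p 7.92e-09), while the chromatin-associated Dppa4 was lower at -0.15 (adjusted p 0.0154). After Trim71 loss the median was -0.16 with Lin28a intact, with 3 lower and none higher (30% called, against 11.2% of all genes), and -0.11 without, with 3 lower and 1 higher (40%, against 8.38%). The F-box gene Fbxo15 was lower in both states, at -0.57 (adjusted p 0.00436) and -0.48 (adjusted p 0.00327). Pou5f1 and Sox2 themselves were not called lower in either state. Without Lin28a, however, the Sox2 difference was -0.16 (limma adjusted p 0.0574, lower in 5 of 5 pairs). With Lin28a intact it was 0.13, and the Pou5f1 differences were 0.13 with Lin28a intact and 0.03 without. The part of Pou5f1 and Sox2 levels in the lower values of these targets was not tested.

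**Figure D4:**
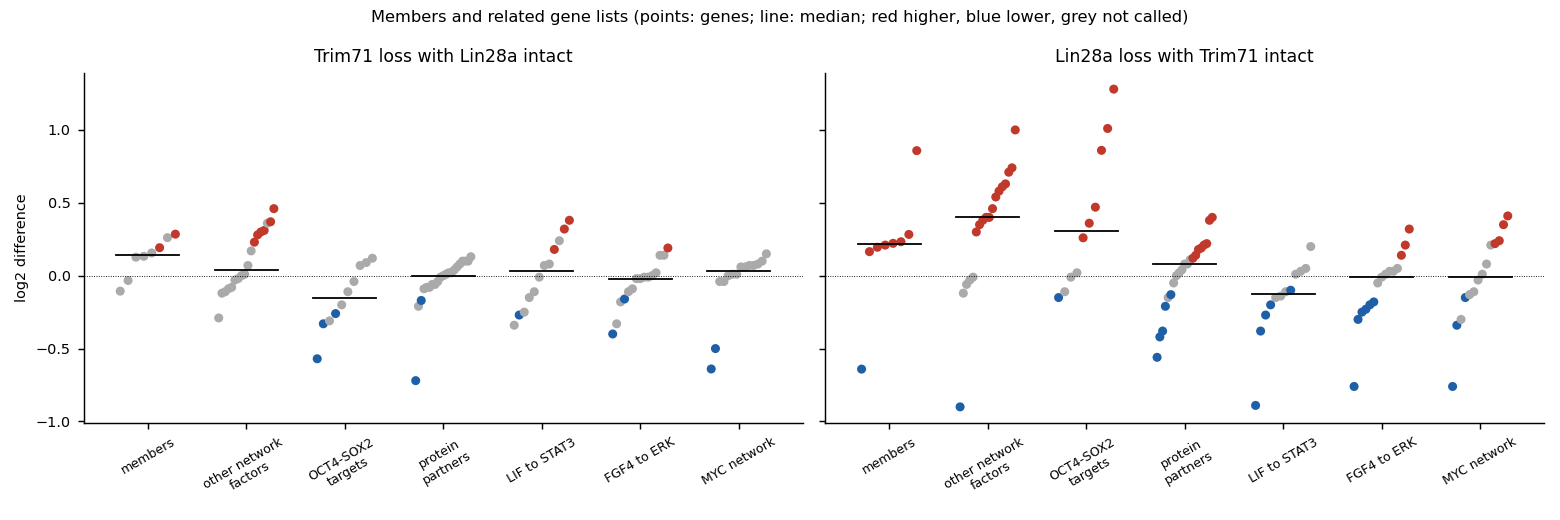
Log2 difference (vertical axis) of each gene of the member set and of 6 related lists (horizontal axis) after Trim71 loss with Lin28a intact (left) and Lin28a loss with Trim71 intact (right). Points are genes, coloured red where called higher, blue where called lower and grey where not called, and lines are medians. After Lin28a loss the other network factors have a median of 0.40 and the path from LIF to STAT3 one of -0.12.

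Markers of other cell types moved with the Lin28a state beside these results. Summed on the linear scale, the 10 trophectoderm markers ran from 4570 to 6060 units in WT-WT and from 4570 to 5590 in KO-WT, against 1130 to 1360 in WT-KO and 1010 to 1260 in KO-KO. The 10 primitive endoderm markers ran from 8840 to 9810 in WT-WT and from 9280 to 11100 in KO-WT, against 3780 to 4650 in WT-KO and 4390 to 5220 in KO-KO. After Lin28a loss with Trim71 intact 6 of 8 tested trophectoderm markers and 8 of 8 tested primitive endoderm markers were called, all lower. In that comparison 42.4% of all genes were called, 20.3% higher and 22% lower, and the marker counts that follow are to be read beside these shares. The highest trophectoderm markers in WT-WT were the keratin genes Krt8 and Krt18, which weigh most in the sum. Their means fell from 10.96 and 10.80 in WT-WT to 6.74 and 6.60 in WT-KO. Eomes and Tfap2c, at 0.13 each, were not called. The defining trophectoderm genes Cdx2 and Elf5 were under the filter, with highest values of 3.13 and 1.02. The primitive endoderm genes Gata4 and Gata6 fell from means of 6.44 and 4.67 in WT-WT to 4.84 and 3.32 in WT-KO. Of the 8 stem cell markers 4 were called higher, and Dnmt3l at -0.71 and Dppa4 at -0.15 were called lower. Of 7 tested formative or primed markers 1 was called higher and 4 lower. Of 4 tested neural markers 2 were called higher, Tubb3 at 0.90 and Pax6 at 0.45, and 1 lower, and the sum of the list ran from 439 to 572 in WT-WT and from 586 to 764 in WT-KO. Of 6 tested stress and dissociation markers 1 was called higher, Egr1 at 1.41, and 4 lower, Fos at -1.01, Jun at -0.67, Atf3 at -0.64 and Hspa1b at -0.50. Of 6 proliferation markers 3 were called lower, among them Mki67 at -0.79. Of 4 tested fibroblast markers 2 were called lower, Col1a2 at -1.88 and Col1a1 at -0.87. The part of these changes in the rise of Nanog, Sall4, Sox2, Stat3 and Fgf4 and in the fall of Myc was not tested. After Trim71 loss with Lin28a intact none of 8 tested trophectoderm, 4 neural and 4 fibroblast markers was called. Of all genes 11.2% were called there, 4.74% higher and 6.43% lower. In that comparison 1 of 8 primitive endoderm, 1 of 7 formative or primed and 1 of 6 stress markers were called higher. Of 6 proliferation markers 1 was called lower. After Trim71 loss without Lin28a, 2 of 8 primitive endoderm, 1 of 7 formative or primed and 1 of 8 stem cell markers were called higher. Of 8 trophectoderm markers 1 was called lower there. The shares of all genes in this comparison were 4.26% higher and 4.12% lower.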

How the data were processed

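The data were 1 deposited table with 21685 gene symbols and 19 mRNA libraries of mouse stem cells, made from TRIzol-extracted RNA with an Illumina TruSeq kit, per the labels' protocols. The submitters' processing notes name CASAVA 1.8, STAR and DESeq2 without role or order; the genome build, annotation, counting and normalisation are not given in the sources used here.

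The deposited values are taken as log2 normalised expression, as read from the values: they ran from -0.71 to 16.30, and library sums of 2 to the power of the values ran from 7297919 to 7677445. Day effects had been removed from them: fitting genotype and day together gave no day term above 8.2e-09, against 1.63 with days shuffled within genotype. KO-WT replicate 5 differed by at most 1.5e-08 from the average of the 4 remaining KO-WT libraries and was left out, which left 18 libraries. Library depth cannot be read from these values, and no counting intervals are given.

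A gene was tested if 4 or more libraries reached log2 of 10, which left 14988 genes. The model, fitted with limma 3.58.1 (R 4.3.3), had 1 mean per genotype, a term per day and trended variances and left 10 residual degrees of freedom. Day, shared across genotypes by the labels, is the block that pairs libraries; a correlation check is void once day effects are removed. Tested on simulated data of the comparison of KO-WT with WT-WT (14988 genes, 200 changed, 5 simulations), this fit recovered a median of 21.2% of changes of 0.25, 78.4% of 0.5 and 100% of 1 log2 unit, with 5.93% of calls false. Without the day term 37.1% were false. The simulated noise was drawn for each gene on its own, with assumed day effects and no trend with GC content. The real comparison had such a trend (rank correlation 0.502), so these false shares need not hold for its calls.

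The members and gene lists were chosen with earlier results of these data known. All 8 members are named; nearest genes are given for members whose genotype means span at least 0.5 log2 units (3 each), and from each list up to 2 called genes a direction. Some genes that this rule names are not reported here. A gene named outside this rule was chosen after its values were seen. The comparison of the single mutants was added after the data were seen. Start regions came from RefSeq (GRCm38.p6) and transcript GC content from GENCODE (98.2% of genes tested).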

Additional observations from a re-analysis of the deposited data

Results flagged for a closer look

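Of 32 sets of libraries (8 members in 4 genotypes), 2 held a library far from the rest by Dixon's test at the 95% level, which chance alone gives for about 1 in 20 sets. Pou5f1 was low in WT-KO replicate 3, at 12.69 against 12.83 to 12.88 in the other WT-KO libraries. Sox2 was high in KO-KO replicate 5, at 11.66 against 11.49 to 11.53 in the other KO-KO libraries. Without that library the Sox2 difference after Trim71 loss in Lin28a-null cells was -0.19 and was called (limma adjusted p 0.0243). The library was picked on the Sox2 values themselves, so this call is not independent support for a Trim71 effect.

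Sox2 and Utf1 moved in opposite directions after Trim71 loss in the 2 Lin28a states, in every same-day pair. The test of the difference gave -0.28 for Sox2 (limma adjusted p 0.184) and -0.51 for Utf1 (limma adjusted p 0.179), so neither was called.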

How the results depend on the processing

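The number of members called changed as follows, with the share of all genes called under the same setting in parentheses. For Trim71 loss with Lin28a intact, 2 members (11.2%) became 5 without the day term, that is with no replicate block (28.1%), 0 without the variance trend (8.31%), 0 with the 2 genotypes alone (0.2%), 0 in clones E3 and C1 alone (0.0667%), 0 in clones 1 and 1-4 alone (2.3%), 1 on the 3 days with all genotypes (3.16%) and 1 with the GC content and length trend removed (7.54%); leaving out 1 library gave 0 to 3 (3.52% to 13.2%). For Trim71 loss without Lin28a, 2 (8.38%) became 4 without the day term (17.5%), 4 with the 2 genotypes alone (5.3%), 0 in clones E3 and C1 (1.02%) and 1 in clones 1 and 1-4 (1.91%); leaving out 1 library gave 1 to 4 (4.51% to 9.29%). For Lin28a loss with Trim71 intact, 8 (42.4%) became 2 in clones E3 and C1 (15.5%) and 5 in clones 1 and 1-4 (29.2%); leaving out 1 library gave 6 to 8 (35.9% to 43.7%). For loss of both, 6 (45.6%) became 3 in clones E3 and C1 (17.8%), and leaving out 1 library gave 5 to 6 (38.4% to 46.8%). For the interaction, 0 (0.02%) became 2 without the day term (4.49%). The clone subsets held 11 libraries (E3 and C1) and 7 libraries (1 and 1-4). Each had 2 WT-WT libraries, and clones 1 and 1-4 had 1 KO-WT library, so calls lost there do not show that a difference was absent. Other causes were not tested.

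Directions reversed for uncalled differences. After Trim71 loss with Lin28a intact, Nanog was 0.07 in clones E3 and C1 and 0.02 with the GC trend removed (leave-one-out -0.08 to 0.02). Without Lin28a, Pou5f1 was -0.07 in clones 1 and 1-4 (leave-one-out -0.02 to 0.05), and Nanog was -0.05 there and -0.03 on 3 days (leave-one-out -0.01 to 0.12). After loss of both, Utf1 was 0.01 with 75th percentile scaling, 0.03 with median scaling, 0.01 with 2 genotypes alone, 0.04 in clones 1 and 1-4, 0.10 on 3 days and 0.05 with the GC trend removed (leave-one-out -0.07 to 0.07), and Sox2 ran from 0.00 to 0.11. Between the single mutants, Pou5f1 was -0.01 in clones E3 and C1, Utf1 0.08 with the GC trend removed, and Stat3 -0.07 in clones 1 and 1-4, -0.03 on 3 days and -0.03 with the GC trend removed (leave-one-out -0.04 to 0.03). For the interaction, Pou5f1 was 0.02 with the GC trend removed, Myc 0.13 on 3 days and 0.02 with the GC trend removed (leave-one-out -0.12 to 0.12), Stat3 -0.02 in clones E3 and C1, and Fgf4 -0.01 in clones 1 and 1-4 (leave-one-out 0.00 to 0.08). Of 27 called member differences, 12 kept their call under every alternative other than leaving out a library. Library depth is unknown and limits small differences to an unknown extent.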
